A study of Mus musculus with 42 samples.

Results

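The Nr4a and AP-1 immediate early genes are described here across mouse uterine tissue-resident natural killer (trNK) cells. The members were taken by name, with earlier results of these data known. They were the orphan nuclear receptors Nr4a1, Nr4a2 and Nr4a3 and the AP-1 subunits Fos, Fosb, Jun and Junb. The early response genes Egr1, Ier2 and Klf4 completed the list. All 10 were among the 54353 genes counted in each of the 34 bulk RNA-Seq libraries, and 9 of the 10 were among the 35237 genes of the joined single-cell matrix, where Nr4a2 was not analysed here. The question was how these genes behaved in cells lysed straight after sorting and in cells from culture, and whether they moved with gestation, with differentiation stage or with IL-21.

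All mice were wild-type C57BL/6 females, 8 to 12 weeks old per the methods, and uteri were digested with collagenase before sorting. The fresh libraries numbered 12. They were CD49a+CXCR6- trNK cells sorted into lysis buffer from virgin mice and on gestational days (gd) 6.5 and 8.5, and 3 subsets of gd8.5 trNK cells sorted on the surface proteins 4-1BB and CD55: trNK-V (both low), trNK-D (both intermediate) and trNK-T (both high), which the study names virginal, differentiating and terminal. The time course had 16 libraries of trNK cells, sorted per the study's text as the trNK-V subset of gd6.5 uteri, at 0, 6, 24 and 72 h with IL-15 (10 ng/ml in the sample labels, 15 ng/ml in the treatment notes), without or with 20 ng/ml IL-21. The labels of the 0 h libraries carry the same cytokines, and they do not say whether those cells were lysed directly. The inhibitor culture had 6 libraries of uterine trNK cells, again of the gd6.5 trNK-V subset per the study's text. The labels list them as live NK1.1+ lymphocytes. The groups were a control with no treatment in its labels, IL-21 at 20 ng/ml for 3 days, and IL-21 with 1 µM Stattic. Stattic is a small molecule inhibitor of STAT3. The labels give no IL-15 for this culture, but the study's methods put 10 ng/ml IL-15 in the medium of cultured trNK cells. Each of the 17 groups had 2 libraries, and nothing in the labels says whether these came from separate mice, so p-values measure the spread between these libraries only.

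Total counts ran from 11862089 to 66468883 per library, with the time course mostly deeper than the other experiments. The 34 libraries carried Ncr1, which encodes the sorting marker NKp46, at 46.8 RPKM or more. It ran from 46.8 to 473 RPKM in the inhibitor culture, below every fresh library (493 to 1020), and from 454 to 1030 in the time course. The 2 virgin libraries stood apart from each other: the NK identity list summed to 2270 RPKM in one and 10600 in the other, and the terminal stage list to 984 and 16400. Gzmb is in both lists and ran from 173 to 13000 RPKM over the 6 gestation libraries, against 493 to 992 for Ncr1. These sums therefore follow granzyme level and do not measure identity alone. One virgin library had also been counted on a different annotation, with 55573 genes listed against 54446. Fold changes against the virgin group are therefore given with and without each library.

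Immediate early genes are switched on within minutes of a stimulus from factors already present in the cell, without new protein synthesis, and their transcripts are short-lived. Serum response factor, CREB and other factors downstream of MAP kinases and calcium drive them. Fos and Jun proteins pair to form AP-1, which in turn drives cytokine and effector genes in lymphocytes, while Nr4a receptors are induced by antigen receptor and calcium signals and are known for their link to tissue residency and to restraint of T cell activation. The same genes also respond to tissue handling, warmth and stress, which is background to any comparison of freshly dissociated with cultured cells.

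Letters upstream of the start sites were looked up first, since members that move together can share promoter motifs. RefSeq promoters (GRCm38.p6, the build of the bulk counts) were at hand for 8 members, without Egr1 and Ier2. The 250 bases upstream of 8 members held no full cAMP response element (TGACGTCA, in 1.55% of all 32841 promoters), no AP-1 site (TGANTCA, in 6.75%), no CArG box (in 1.47%) and no STAT site (TTCNNNGAA, in 7.02%). The EGR site GCGNGGGCG was in 4 of 8 (Nr4a1, Nr4a2, Fosb and Klf4), against 4.70% of all promoters. The 5-base core of the cAMP response element, TGACG, which is contained in the full element and was added after the sequences were seen, was in 7 of 8, against 17.8%. Both strands were searched. The 160 bases nearest the start were GC-rich, from 58.1% GC in Jun to 83.1% in Nr4a2 among the 8. The shares over all promoters were not matched for base composition, so they do not show enrichment of these GC-containing letters. The promoters of 4 members are shown, from 160 bases before the start site up to it, because 3 of them (Fos, Junb and Jun) gave the largest differences between stages below, and Nr4a1 was the member that fell in both fresh comparisons. Capitals mark the TGACG core or the EGR site on either strand.
Fos (chr12:85473730-85473889, plus strand): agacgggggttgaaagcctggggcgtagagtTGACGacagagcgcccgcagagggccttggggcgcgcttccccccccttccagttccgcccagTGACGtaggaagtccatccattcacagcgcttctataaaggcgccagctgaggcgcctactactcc
Junb (chr8:84978749-84978908, minus strand): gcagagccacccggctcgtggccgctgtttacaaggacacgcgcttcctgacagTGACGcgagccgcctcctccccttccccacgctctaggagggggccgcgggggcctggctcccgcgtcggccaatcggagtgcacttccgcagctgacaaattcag
Jun (chr4:95052223-95052382, minus strand): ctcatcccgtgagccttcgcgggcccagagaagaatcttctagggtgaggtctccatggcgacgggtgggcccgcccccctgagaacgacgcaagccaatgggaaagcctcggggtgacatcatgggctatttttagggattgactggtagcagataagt
Nr4a1 (chr15:101266686-101266845, plus strand): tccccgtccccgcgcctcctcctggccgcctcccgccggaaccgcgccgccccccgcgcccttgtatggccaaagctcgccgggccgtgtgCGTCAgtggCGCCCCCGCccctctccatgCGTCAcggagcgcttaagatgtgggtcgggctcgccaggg
Fos had TGACG cores at 129 to 125 and 66 to 62 bases before its start, Junb at 106 to 102, and Nr4a1 had the reverse-strand letters at 69 to 65 and 40 to 36 in the stretch shown. Jun was the 1 member of 8 with no match to any of these motifs in the window. A match is a description of letters only.

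In the fresh libraries, Junb was the most abundant member, with a median of 330 RPKM (counts scaled to exon length and to the library total) over 12 libraries and a range of 42.8 to 974. Ier2 followed at a median of 147 RPKM, from 48.8 to 457, and then Fos at 65.2, from 10.5 to 398. These 3 ranges overlapped, so the order rests on medians. Jun had a median of 46.5 RPKM (15.1 to 260). Nr4a2, Nr4a1 and Egr1 lay close together at medians of 19.2, 17.4 and 12.3 RPKM. Nr4a3 at 5.54 RPKM, Fosb at 1.47 and Klf4 at 0.492 were the least abundant, and none of these 3 exceeded 10 RPKM in both libraries of any group, the level needed to be tested.

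Fos, Fosb and Klf4 were at or near 0 counts at the first time point of the culture. Fos, an AP-1 subunit that is induced briefly, had 0 counts in 3 of the 4 libraries at 0 h, where 3 counts would be 0.0217 to 0.0300 RPKM, and 4 counts (0.0564 RPKM) in the fourth. Every one of the 12 fresh libraries had at least 294 counts of Fos. Klf4 had 0 counts in all 4 libraries at 0 h, against as few as 2 counts in a fresh library, and Fosb at most 2 counts.

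The other members were present at 0 h at low levels. Junb was at 1.93 and 1.53 RPKM in the 0 h libraries without IL-21 and at 2.32 and 2.49 in those with IL-21. Jun was at 0.198, 0.106, 0.392 and 0.664 RPKM in the same order. Neither gene reached, in any of these 4 libraries, the lowest of its 12 fresh values.
Nr4a1 was at 0.189, 0.997, 0.0669 and 0.201 RPKM at 0 h. Nr4a2 was at 1.05, 0.849, 1.61 and 1.57 RPKM, and Egr1 at 0.822, 0.216, 1.21 and 0.819. Ier2 stood highest at 0 h, at 10.7, 10.6, 9.97 and 5.04 RPKM, and was the 1 member with over 10 RPKM in both libraries of a time course group.

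All 10 members at 0 h lay below all 12 fresh libraries with no overlap. Among the 4346 genes over 10 RPKM on average in the fresh libraries, 42.0% lay below in the same way, so the lack of overlap alone is frequent in this comparison; 7 of the 7 members in that gene set did so. After each library was scaled by its median ratio to the fresh libraries, 28.0% of those genes and 9 of 10 members lay below, and Nr4a3 overlapped. Counting the members against the fresh gd8.5 libraries alone, or without the virgin library of the other annotation, left all 10 below, where 44.4% and 43.4% of the expressed genes lay below. The count is a description, with no test, because the fresh libraries and the time course differed in kit (SMART-Seq HT against a Vazyme single-cell kit) and in experiment. Kit, experiment, subset and culture cannot be told apart. Mitochondrial genes took 3.8 to 5.42% of counts at 0 h and 4.37 to 11.8% at 72 h, against 0.95 to 1.73% in fresh libraries, and the 50 most abundant genes took 28.9 to 34.5%, 35.0 to 46.4% and 16.7 to 21.1%. None of these ranges overlapped the fresh one, and their part in the members' levels was not tested. In bulk samples, fewer cells of a type and less RNA per cell cannot be told apart either.

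**Figure D1:**
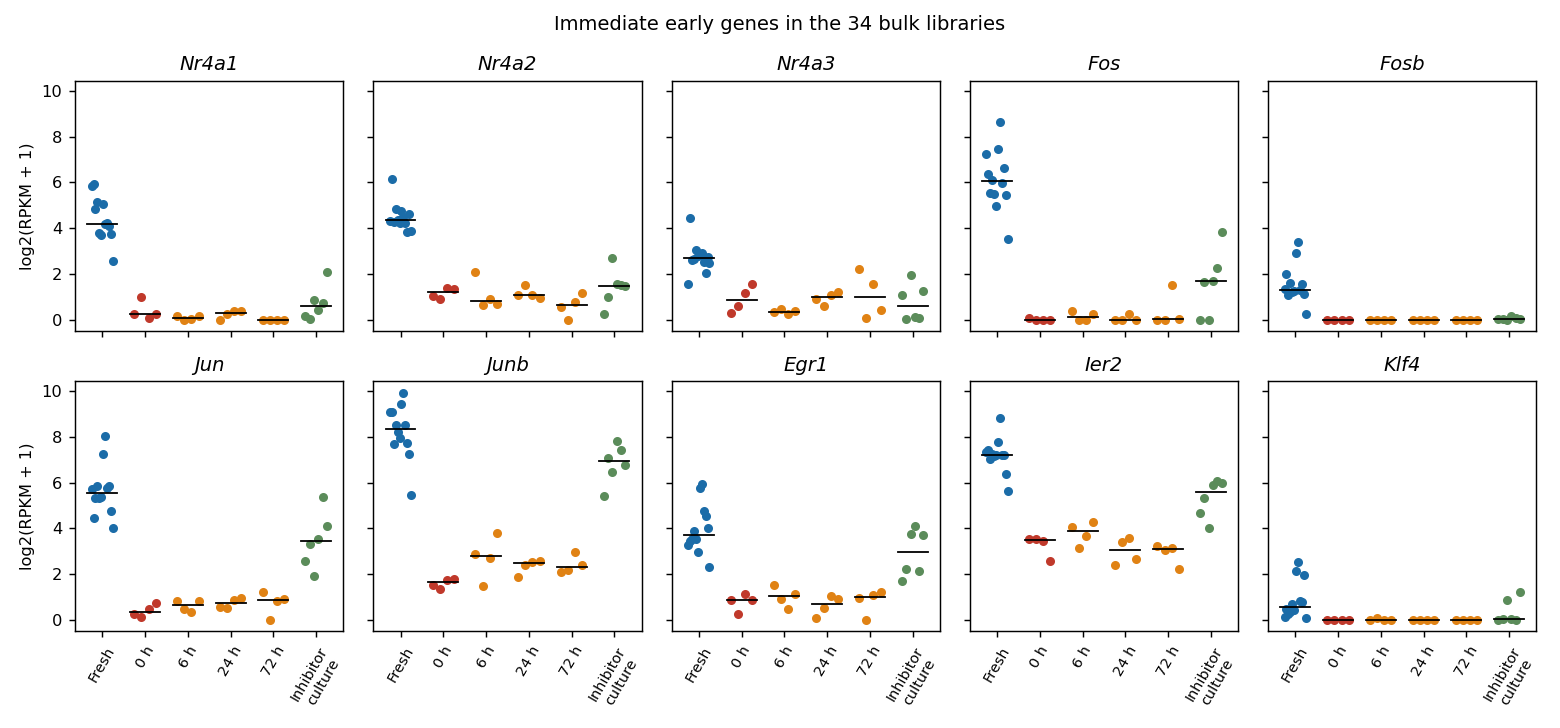
Level of each member as log2(RPKM + 1) on the vertical axis in every bulk library, with 1 point per library and a black line at the median of each set: 12 fresh libraries, 4 libraries at each time of the culture, and 6 of the inhibitor culture. Every member is lower at 0 h than in any fresh library. Ier2 and Junb have the highest medians from 0 h to 72 h, and Fosb and Klf4 are low in fresh libraries too. The median of each member is higher in the inhibitor culture than over all time course libraries together. For Nr4a3 the gap is narrow (0.603 against 0.516 RPKM), and its medians at 0 h (0.87) and 72 h (1.15) are higher than in the inhibitor culture.

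The size of the difference was set beside genes of like base composition, because the time course libraries were low in GC-rich genes as a whole. On the scale of mean log2(RPKM + 1), 0 h minus fresh had a median of -0.77 over the 4346 genes. By deciles of exon GC content, it ran from 0.01 in the lowest decile (29.6 to 41.2% GC) to -1.93 in the highest (56.8 to 85.7%). Across genes, which are not independent replicates, the Pearson correlation with GC was -0.35.
Most members are GC-rich, and most lay below genes of their decile. Junb (62.6% GC) differed by -6.64, against a median of -1.93 and a 10th percentile of -3.79 in its decile. Fos (52.0% GC) differed by -6.09, against -1.07 and -2.67, and Jun (55.5% GC) by -5.24, against -1.97 and -3.39. Fos, Jun and Junb were thus beyond the 10th percentile of genes of like GC content. Nr4a1 (-4.02), Nr4a2 (-3.32) and Ier2 (-3.92) were past the 10th percentile of their deciles as well. Egr1 at -3.21 lay within its own (10th percentile -3.79). On this scale a fall is bounded by the fresh level, which was lower for Egr1 (mean 20.1 RPKM) than for Junb (387). The deciles match genes on GC and not on level. Genes of low fresh level in them could not fall as far as Junb, Ier2 (167), Fos (100) or Jun (67.6). The part of level in these positions was not tested. Fosb, the fourth AP-1 subunit, Klf4 and Nr4a3 were too low for that gene set. Fosb differed by -1.58 and Klf4 by -0.89, as they did at 72 h with a mean of 0 RPKM. Their low fresh levels allow no larger fall, so they are not set beside their deciles. Nr4a3 differed by -1.82, between the median (-0.69) and the 10th percentile (-2.35) of its decile.
Batf, a partner of Jun proteins of like GC content (56.0%), differed by -0.96, less than the median of its decile. Ncr1 was at 733 to 919 RPKM at 0 h and 493 to 1020 in fresh libraries, so the level of this identity gene overlapped. Eomes, a transcription factor of NK cells, did not overlap, at 9.95 to 18.4 RPKM at 0 h and 29.1 to 66.0 in fresh libraries. The early response genes Dusp1 (0 to 0.776 RPKM at 0 h, 10.2 to 384 fresh) and Cd69 (21.2 to 38.8 at 0 h, 30.5 to 77.3 fresh) stood at opposite ends. These 5 genes were chosen after their values were seen.

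**Figure D2:**
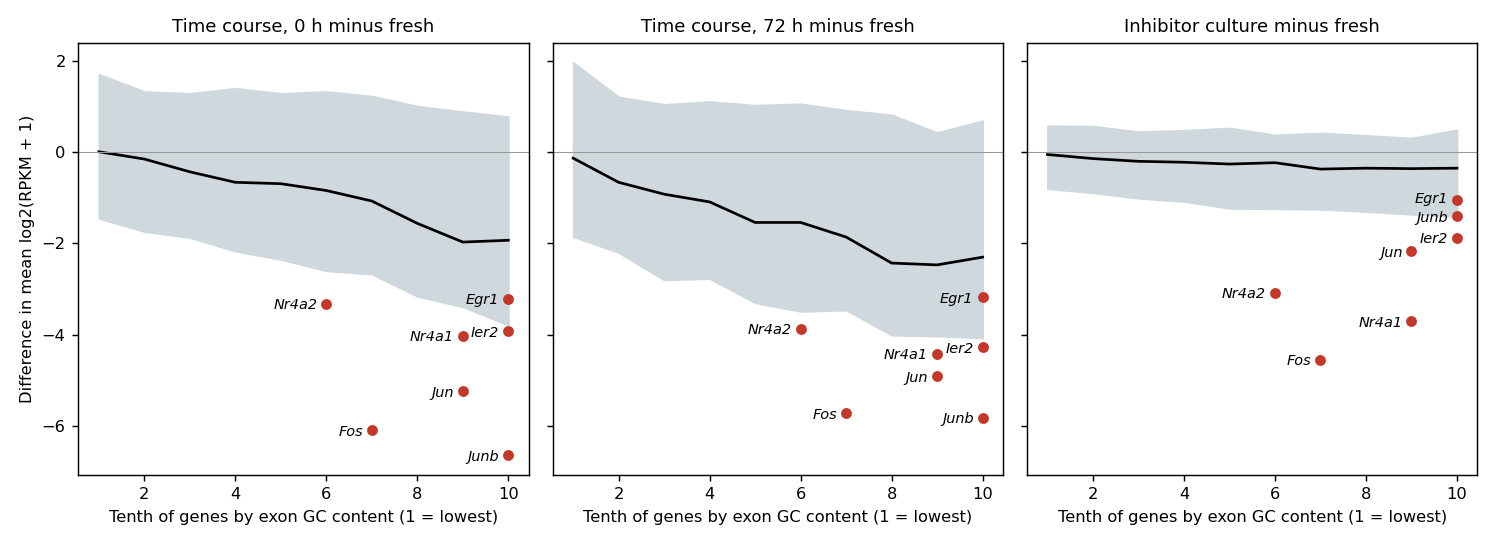
Difference from the fresh libraries in mean log2(RPKM + 1), on the vertical axis, against deciles of genes by exon GC content. The black line is the median of the 4346 expressed genes, the grey band runs from the 10th to the 90th percentile, and red points are the 7 members in that gene set. At 0 h and 72 h of the time course, Fos, Jun and Junb lie well below the band and Egr1 lies inside it. The deciles are not matched on level.

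No change of a tested member between 0 and 72 h passed the test. Ier2, a small nuclear early response protein, was the 1 member that passed the filter in the time course. At 6 h it was at 15.7 and 7.98 RPKM without IL-21 and at 11.8 and 18.4 with IL-21. At 24 h the values were 4.33, 9.72, 11.1 and 5.36 RPKM, and at 72 h 8.46, 7.23, 7.94 and 3.71. The ranges overlapped those at 0 h at each time.
In edgeR's quasi-likelihood test over 3503 genes, Ier2 differed from 0 h by log2 0.44 (SE 0.41) at 6 h, adjusted p = 0.654, and 0 members were called, against 0.343% of all genes. To be called, a gene needed a Benjamini-Hochberg adjusted p under 0.05 together with more than a 2-fold change. At 24 h the difference from 0 h was -0.27 (adjusted p = 0.921, with 0.257% of genes called) and at 72 h -0.11 (adjusted p = 0.863, with 23.9% of genes called). The unadjusted p for Ier2 was above 0.05 in each, and DESeq2 called 0 members in each, against 1.66%, 1.31% and 26.1% of genes.
IL-21 gave no call among members at any time. The difference in Ier2 with against without IL-21 was 0.33 at 6 h (edgeR adjusted p = 0.945, 1.97% of genes called), 0.12 at 24 h (adjusted p = 0.965, 1.66% called) and -0.56 at 72 h (adjusted p = 0.603, 8.08% called). The change from 0 h in the IL-21 arm minus that in the other arm was also not called for Ier2 at 6, 24 or 72 h (edgeR adjusted p = 0.920, 0.971 and 0.933, with 0.114%, 0.171% and 3.85% of genes called).

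The other 9 members stayed too low for the test in the time course. Fos had 0 counts in 7 of the 12 libraries from 6 to 72 h, and its highest value was 1.87 RPKM, in 1 library at 72 h with IL-21 whose partner library was at 0.0298. Fosb had 0 counts in all 12. Nr4a1 had 0 counts in all 4 libraries at 72 h, where 3 counts would be 0.0205 to 0.0300 RPKM. Without the filter, edgeR called Nr4a1 lower at 72 h than at 0 h (9.15% of genes called) and than at 24 h (7.77% called), and no other member. Over 6 to 72 h, 8 of 10 members lay below all fresh libraries, where 32.3% of expressed genes did (17.9% after scaling), with Nr4a3 and Klf4 overlapping. Junb ranged from 1.82 to 13.0 RPKM and Nr4a3 from 0.0441 to 3.60.

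In the inhibitor culture, Junb, Jun and Egr1 were above every time course library. These are separate experiments. In the highest GC decile, which holds Junb and Egr1, the median difference from fresh was -0.35 in the inhibitor culture. It was -1.93 at 0 h and -2.3 at 72 h of the time course. The next decile, which holds Jun, had -0.36, -1.97 and -2.47 in the same order. Ncr1 in the inhibitor culture (46.8 to 473 RPKM) was below every fresh library. How these differences bear on the members was not tested. Junb was at 41.7 and 136 RPKM in the control, at 88.1 and 228 with IL-21, and at 172 and 109 with IL-21 and Stattic. Those values overlapped the fresh range, as did those of Ier2 (15.1 to 67.1 RPKM). Fos stayed low, at 0 and 2.12 RPKM in the control, 0 and 2.27 with IL-21, and 3.74 and 13.1 with Stattic. Nr4a1 did not exceed 3.20 RPKM and Nr4a2 did not exceed 5.52, both below every fresh library.
Against fresh libraries, 3 of 10 members (Nr4a1, Nr4a2 and Fosb) lay below without overlap, where 3.93% of the expressed genes did (2.55% after scaling). Of the 7 members in that gene set, 2 did so, and Fosb is not in it. Mean log2(RPKM + 1) differed by -4.55 for Fos, -3.71 for Nr4a1 and -3.08 for Nr4a2, with medians of -0.37, -0.36 and -0.23 in their GC deciles. Junb differed by -1.40 and Egr1 by -1.05. Of the 7 members in the expressed gene set, Fos, Nr4a1, Nr4a2, Jun (-2.17 here) and Ier2 (-1.88 here) were past the 10th percentile of their deciles in both cultures, and Junb and Egr1 lay within theirs here (10th percentile -1.41).

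Egr1, a zinc finger factor and the classical early response gene, gave the largest IL-21 difference among the 4 tested members in that culture. It was at 2.28 and 3.73 RPKM in the control, at 12.4 and 16.1 with IL-21, and at 3.45 and 12.3 with Stattic. Control and IL-21 did not overlap. Egr1 passed the filter only through the IL-21 group, so its entry to the test depended on the level compared. The log2 fold change with IL-21 was 2.42 (SE 0.66), but the adjusted p of 0.204 in edgeR did not pass, and 0 of 4 tested members were called, against 0.289% of 4158 genes. Egr1 alone had an unadjusted p under 0.05, and DESeq2 (3.90% of genes called) and edgeR with no filter on low values (0.687%) each called it.
Jun was at 5.00 and 8.93 RPKM in the control, at 2.83 and 10.8 with IL-21 and at 40.6 and 16.1 with Stattic. Both Stattic libraries stood above the other 4. Jun passed the filter only through the Stattic group, so its entry to the test likewise depended on the level compared. The log2 fold change with Stattic against IL-21 alone was 2.18 (SE 0.72), with an edgeR adjusted p of 0.157, and 0 of 4 members were called against 2.96% of genes. Jun alone had an unadjusted p under 0.05, and DESeq2 (10.7% of genes called) and edgeR with no filter (2.17%) each called it. Against the control, Stattic with IL-21 also gave 0 calls among the 4 members, where 4.74% of genes were called. At an unadjusted p under 0.05 there were 2 (Jun and Egr1), and DESeq2 (583 of 4158 genes called) and edgeR with no filter (3.07%) each called Jun. Heat shock genes moved with Stattic: 8 of the 11 tested were called higher than with IL-21 alone; the list median was 2.82 on the log2 scale, and that of all genes -0.03. Their sum was 10100 RPKM in both Stattic libraries and 1300 to 1380 with IL-21. Their part in the Jun values was not tested. Of 18 tested other immediate early genes, 3 (Klf6, Ppp1r15a and Rgs1) were called higher, named here after their values were seen.

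Across gestation, Nr4a1 fell and the AP-1 subunits did not pass the test. Nr4a1 was at 55.8 and 59.1 RPKM in virgin trNK cells. It was at 27.5 and 34.3 RPKM on gd6.5 and at 13.0 and 11.9 on gd8.5. The 3 groups did not overlap. From virgin to gd8.5 the log2 fold change was -2.27 (SE 0.19), adjusted p = 0.0130 in edgeR. It was the 1 of 7 tested members called, against 0.422% of 4499 genes. The call was kept without the first and without the second virgin library (-2.32 and -2.23) and was lost without either gd8.5 library (adjusted p = 0.325 and 0.248), at fold changes of -2.33 and -2.22.
From virgin to gd6.5, Nr4a1 differed by -0.98 (SE 0.18), adjusted p = 0.0311 in edgeR, short of the required fold (-1.02 without the first virgin library, which was called, and -0.94 without the second), and 0 members were called, against 6.18% of genes. At an unadjusted p under 0.05 there were 3, DESeq2 called 2 (10.2% of genes called), and edgeR with no filter called 3 (3.89%). Between gd6.5 and gd8.5 it differed by -1.29 (SE 0.18), adjusted p = 0.0918. In that comparison edgeR called 0 of 4499 genes. Nr4a1 alone among members had an unadjusted p under 0.05 and was called by DESeq2 (4.91% of genes called) and with no filter (1.92%). Members that lay lower without overlap numbered 4 of 7 at gd6.5 against virgin, where 23.4% of genes did, 4 of 7 at gd8.5 against virgin (17.5%) and 2 of 7 at gd8.5 against gd6.5 (35.8%). Egr1 lay higher without overlap at gd6.5 than in virgin cells, at 10.5 and 13.8 against 8.68 and 9.86 RPKM, where 37.0% of genes did. It passed the filter across gestation only through the gd6.5 group, so its place among the tested members depended on the level compared.

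Fos was at 149 and 82.5 RPKM in virgin cells, then 45.1 and 67.7 RPKM on gd6.5 and 43.5 and 30.4 RPKM on gd8.5. Virgin libraries stood above both others without overlap. The fold change from virgin to gd8.5 was -1.71 (SE 0.36), edgeR adjusted p = 0.138. Junb was at 538 and 551, 208 and 371, and 295 and 243 RPKM, with a fold change of -1.08 (SE 0.28), adjusted p = 0.208 in edgeR. Without the first virgin library the fold changes of Fos and Junb were -1.23 and -1.11, neither called. Without the second they were -2.07 and -1.07, both called (edgeR adjusted p = 0.00604 and 0.0476). DESeq2 called Nr4a1, Fos and Junb lower at gd8.5 than in virgin cells (3.62% of all genes called), and edgeR with no filter on low values these and Nr4a2 (2.13% called).
Jun did not follow them. It was at 52.5 and 21 RPKM in virgin cells and at 39.2 and 40.6 at gd8.5, and the virgin libraries lay on either side of both. Its fold change of 0.05 became -0.46 without the second virgin library and 0.86 without the first. Without the first and the second virgin library in turn, 2 and 3 members were called at gd8.5 against virgin (1.56% and 10.7% of all genes called), and 3 and 1 at gd6.5 against virgin (9.98% and 17.4%). At gd6.5 without the first library these were Nr4a1 and Nr4a2, lower, and Jun, higher (1.11, edgeR adjusted p = 0.0260), and without the second Fos, lower. The members called at gd8.5 were Nr4a1 and Nr4a2 without the first library, and Nr4a1, Fos and Junb without the second. Egr1 differed by -0.14 (-0.23 and -0.04 without the first and the second virgin library) and Ier2 by -0.27 (-0.33 and -0.22). Nr4a2 was at 19.0 RPKM in the first virgin library and 69.6 in the second, and Nr4a3 at 1.94 and 20.5, so neither gave a level for virgin cells. Between the virgin libraries, Nr4a2 and Nr4a3 were lower where the sum of the NK identity list, which includes Gzmb, was lower. Fos and Jun were higher there. Whether these go together was not tested. Haemoglobin genes also differed within groups, with an erythroid sum of 12.8 and 224 RPKM in virgin and 0.251 and 844 in gd8.5 libraries.

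**Figure D3:**
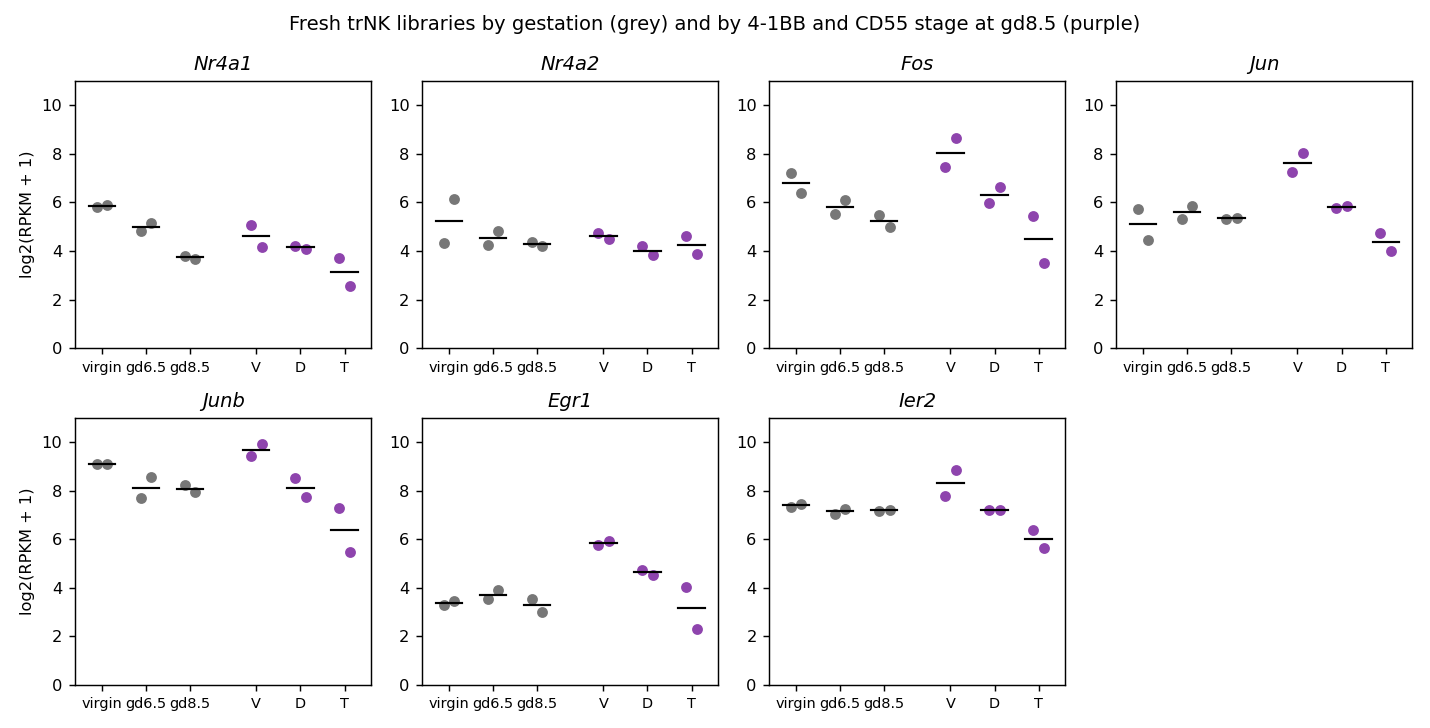
Level as log2(RPKM + 1) on the vertical axis of the 7 tested members in the 12 fresh libraries. Points are libraries and lines are means of 2: grey for virgin, gd6.5 and gd8.5 trNK cells, purple for the trNK-V, trNK-D and trNK-T subsets at gd8.5. Nr4a1 steps down over gestation, and 5 members (Fos, Jun, Junb, Egr1 and Ier2) step down from V through D to T with no overlap between groups. Of all tested genes, 27.5% lay lower without overlap from V to D and 29.5% from D to T, and the share in both steps was not counted.

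Among the fresh comparisons, the largest differences of Fos, Jun, Junb, Egr1 and Ier2 lay between the differentiation stages at gd8.5. Fos was at 175 and 398 RPKM in trNK-V, at 62.7 and 98.1 in trNK-D, and at 42.3 and 10.5 in trNK-T. Jun was at 150 and 260 RPKM in trNK-V, at 53.5 and 56.9 in trNK-D and at 26.1 and 15.1 in trNK-T. Junb was at 694 and 974, 365 and 210, and 153 and 42.8 RPKM. For each of the 3 AP-1 subunits, every trNK-V library stood above every trNK-D library, and those above every trNK-T library. Of all tested genes, 27.5% did so in the first step and 29.5% in the second, and the share in both was not counted.
Egr1 followed the same order, at 52.7 and 60.5, 25.8 and 22.3, and 15.4 and 3.91 RPKM. So did Ier2, at 219 and 457, 147 and 147, and 81.2 and 48.8 RPKM. Nr4a1 was at 32.3 and 17.1, 17.7 and 16.1, and 12.2 and 4.97 RPKM, with trNK-V and trNK-D overlapping.

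From trNK-V to trNK-T, 6 of the 7 tested members were called lower in edgeR, against 13.1% of 4683 genes called lower. The members were chosen with earlier results of these data known. Their share beside that of all genes is therefore a description and not independent support. The same 6 lay lower without overlap, where 38.3% of genes did. The fold changes were -3.44 for Fos (SE 0.72, adjusted p = 0.0151), -3.32 for Jun (SE 0.37, adjusted p = 0.00324) and -3.09 for Junb (SE 0.61, adjusted p = 0.0126). Egr1 fell by 2.54 (SE 0.56, adjusted p = 0.0172), Ier2 by 2.38 (SE 0.40, adjusted p = 0.00795) and Nr4a1 by 1.51 on the log2 scale (SE 0.48, adjusted p = 0.0479).
Jun and Ier2 kept their calls without either trNK-V library. Such a fit leaves trNK-V with 1 library, which is assumed to vary like the other groups. Without the second trNK-V library, which held the highest value of each of Fos, Jun, Junb, Egr1 and Ier2, 2 members (Jun and Ier2) were called, against 13.1% of all genes called either way, and without the first, 4 (Fos, Jun, Junb and Ier2), against 18.3%. Lost calls did not need a large change of fold: Egr1 was at -2.43 and -2.65 in these fits (edgeR adjusted p = 0.0747 and 0.0524), while Ier2, called in both, was at -1.74 and -2.82. The sizes also turned on the trNK-T libraries. Without the first and the second of these in turn, the fold change was -4.75 and -2.75 for Fos, -4.26 and -2.44 for Junb, -3.83 and -1.87 for Egr1, -3.75 and -2.97 for Jun, -2.77 and -2.05 for Ier2 and -2.29 and -1.0 for Nr4a1. The Nr4a1 call was lost in the second of these fits and the other calls were kept. The Nr4a1 call was lost in 5 of the 6 fits that each left out a library, with adjusted p from 0.0647 to 0.206.
For Nr4a2, a paralogue of Nr4a1, no difference passed the test. It was at 25.6 and 21.7 RPKM in trNK-V, 17.5 and 13.1 in trNK-D, and 23.4 and 13.5 in trNK-T, and the ends overlapped. Its fold change from V to T was -0.35 (SE 0.30, edgeR adjusted p = 0.379). Nr4a3 was at 6.04 and 6.65 RPKM in trNK-V and 5.77 and 4.55 in trNK-T, untested for its low level. Fosb was at 6.5 and 9.55 RPKM in trNK-V and at 1.21 and 0.203 in trNK-T; without the filter, edgeR called it lower, along with the 6 (7.71% of genes called either way). DESeq2 called the same 6 as the main test (23.0% called either way).

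The single steps passed for no member. From trNK-V to trNK-D, 6 of 7 tested members lay lower without overlap, where 27.5% of genes did, and 0 were called, against 0.320% of genes. Jun was nearest, at -1.88 (SE 0.35), adjusted p = 0.0973 in edgeR. From trNK-D to trNK-T, 6 of 7 lay lower without overlap, where 29.5% of genes did, and 0 were called, against 1.75% of genes. At an unadjusted p under 0.05 there were 4 and 5 members in these steps. With no filter, edgeR called 6 and 5 lower (1.80% and 2.24% of genes called), and DESeq2 called 2 in each, Jun and Ier2 (3.99% and 6.96% called). For Fos from trNK-V to trNK-T, edgeR's adjusted p was 4.88e-37 with no filter (log2 fold change -3.28). It was 0.0151 in the main fit (-3.44). With 2 libraries a group, no-filter calls here and elsewhere therefore carry less weight than the main calls.

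**Figure D4:**
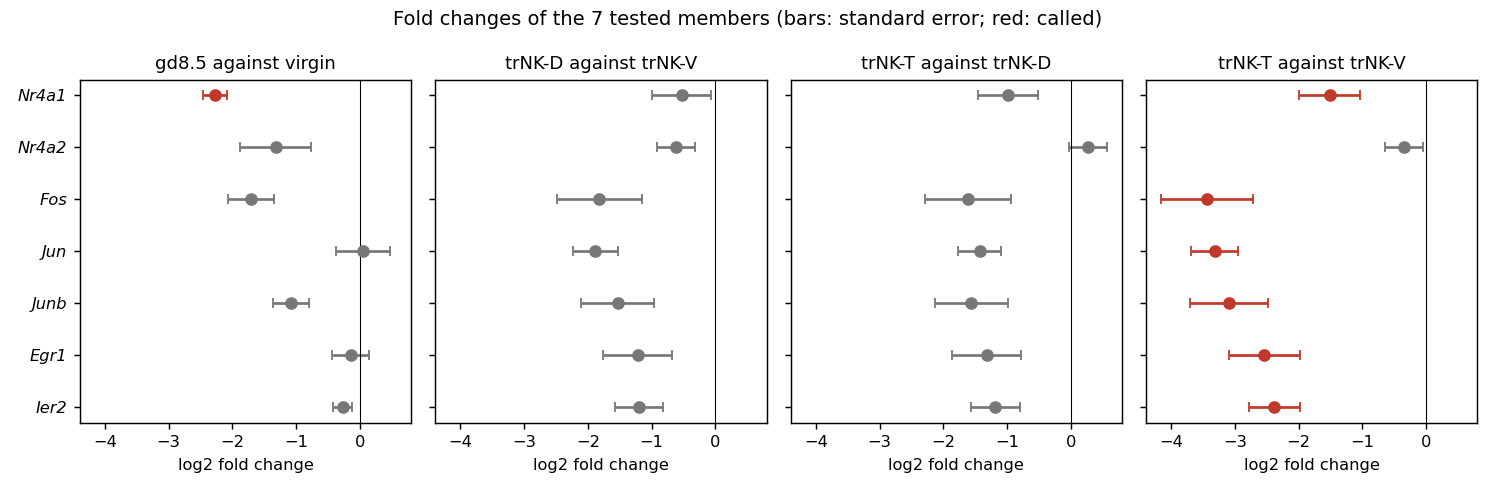
Log2 fold change on the horizontal axis of the 7 tested members in 4 comparisons of fresh libraries, with bars of 1 standard error from edgeR. Red marks the called members: 1 member for gd8.5 against virgin, none for the single steps between stages, and 6 for trNK-T against trNK-V.

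Other early response genes were counted in the same comparison. Of 31 listed, 22 were tested between trNK-T and trNK-V, of which 10 were called lower and 1 higher. The list median was -1.79 on the log2 scale, and that of all genes -0.01. This list, too, was chosen with earlier results of these data known. Those with lower levels included Zfp36, which encodes an mRNA decay factor (-3.08, SE 0.52), Zfp36l1 (-2.61, SE 0.48), Btg1 (-2.59, SE 0.46) and Ppp1r15a, a regulator of the stress response (-2.55, SE 0.39), with edgeR adjusted p from 0.00614 to 0.0101. They are named after their values were seen. Ier3 was the 1 called higher, at 0 RPKM in both trNK-V libraries, 12.6 and 4.76 in trNK-D and 17.4 and 10.2 in trNK-T.
Of the AP-1 and ATF/MAF partners, 3 were tested and 0 were called, and Jund, the Jun paralogue that is widely expressed, was at -2.81 (SE 0.94, edgeR adjusted p = 0.0575). Of upstream regulators, 10 were tested and 2 (Ets1 and Nfatc1) were called lower, with a median of -0.28. Of heat shock genes, 10 were tested, of which 3 (Hspa1a, Hspa1b and Dnajb1) were called lower and 2 (Hspe1 and Hspd1) higher. The inducible Hspa1a and Hspa1b differed by -4.25 (SE 0.96) and -4.01 (SE 0.96), more than any member; both are near-identical copies, so their separate counts are uncertain.
Summed markers of other cells also differed between stages. Conventional NK (cNK) markers, 7 in all, summed to 1030 to 2220 RPKM in trNK-V, 344 to 1250 in trNK-D and 102 to 199 in trNK-T. Markers of type 1 innate lymphoid cells (ILC1), 6 in all, summed to 158 to 167, 56.8 to 64.8 and 3.93 to 5.84 RPKM, in the order of the members. Macrophage markers summed to 48.4 and 294 RPKM in trNK-V, 263 to 352 in trNK-D and 15.0 to 18.2 in trNK-T. Of the 8 markers, 2 exceeded 10 RPKM on average in trNK-V. Stromal markers, 7 in all and none over 10 RPKM on average, summed to 4.60 and 51.9 RPKM in trNK-V and 0.513 to 0.688 in trNK-T. T cell markers summed to 193 to 196 RPKM in trNK-V and 35.5 to 38.3 in trNK-T. Sums of endothelial and epithelial and of mast cell markers were higher in trNK-T than in trNK-V, at 99.4 to 108 against 26.1 to 31.2 RPKM and 8.79 to 10.7 against 1.98 to 2.06. Their part in the fall of the members was not tested.

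Across fresh libraries the members varied together to differing degrees. Over the 12 libraries, which share kit but fall into 2 experiments, the Pearson correlation of each member's log2(RPKM + 1) with the mean of the other tested members was 0.96 for Junb, 0.93 for Fos, 0.90 for Ier2, 0.72 for Jun, 0.69 for Egr1, 0.58 for Nr4a1 and 0.33 for Nr4a2. Within the 6 subset libraries the values for Jun and Egr1 were 0.96 and 0.99, and within the 6 gestation libraries -0.37 and 0.27, so the pooled values for these 2 hide a difference between the experiments that was not tested. Of 5377 genes outside the members, those most like the mean of the 7 included Zc3hav1 (r = 0.978), Zfp36l1 (0.95), Smndc1 and Tsc22d3 (both 0.942), Abtb1 (0.939), H2-Q6 (0.937), Zfp36 (0.934), Ifnar1 (0.932) and Ppp1r15a (0.924). H2-Q6 has near-identical copies, so its counts are uncertain. Over the 16 time course libraries, the genes most like Ier2 were Sgf29 (0.807), Ndufa8 (0.792) and Mrpl2 (0.781). The fresh set was added after the data were seen.

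Single cells of the sorted uterine NK1.1+NKp46+ gate showed where in the mixture the transcripts lay. The capture mixed cells from virgin and gd8.5 mice in 1 library, and the tags that tell them apart were not used here, so no test was possible and intervals cover counting error only. After limits on genes and mitochondrial reads, 8907 of 15175 barcodes were kept. All barcodes were shared by both tables, which hold different genes of the same cells. Clustering without the members gave 18 clusters, of which 10 could be named from markers. The virginal-stage-like cluster (1749 cells, median 2601 unique molecular identifiers, UMIs) was led by Cox6a2, Cd7 and Klra4, and the terminal-stage-like cluster (1248 cells, median 5019.5 UMIs) by Gzmc, Gzmf and Gzmd.

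Between these clusters, 8 of 9 members were lower in the terminal-stage-like cells, each by more than 2-fold. Of the 5755 genes with at least 239 UMIs over both clusters, the number of the rarest member, 62.0% were lower and 8.86% were lower by more than 2-fold. Levels are relative to cluster totals, whose median per cell differed as given above. Fos was at 677 CPM (UMIs scaled to the cluster total) in virginal-stage-like cells and 81.7 in terminal-stage-like cells, 8.29-fold apart (log2 -3.05, 95% interval -3.19 to -2.91). Nr4a1 was at 331 and 50.2 CPM, and Klf4 at 39.1 and 6.27. Fosb was at 426 and 84.9, Junb at 1067 and 239.7, and Egr1 at 403 and 97.5 CPM. All 6 were at least 4.14-fold lower.
Jun and Ier2 differed less, by 2.74-fold and 2.60-fold. Nr4a3 was at 110.7 and 102.4 CPM, log2 -0.11 with an interval of -0.28 to 0.05, so no difference was detectable at this depth. Its sign turned under other cell limits (0.42) and a coarser clustering (0.15). Fos, Junb, Egr1, Jun, Ier2 and Nr4a1 thus took a smaller share of the UMIs in the terminal-stage-like cluster and were called lower in the trNK-T libraries. Only the members were left out of the clustering. Other early response and heat shock genes could still shape the clusters, so the clusters are not independent of the members.
Low levels were shared by the dividing-like cluster (506 cells, median 4903.5 UMIs), led by Pclaf, Rrm2 and Ube2c. Fos was at 88.3 CPM there, Jun at 334, Junb at 260 and Nr4a1 at 103. Against terminal-stage-like cells, Jun, Nr4a3, Fosb, Egr1 and Ier2 were lower and Fos, Junb, Nr4a1 and Klf4 higher. The intervals overlapped for Fos, Fosb, Junb, Egr1, Ier2 and Klf4. They did not for Jun, Nr4a1 and Nr4a3 (78.1 CPM in dividing-like cells against 102.4).

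**Figure D5:**
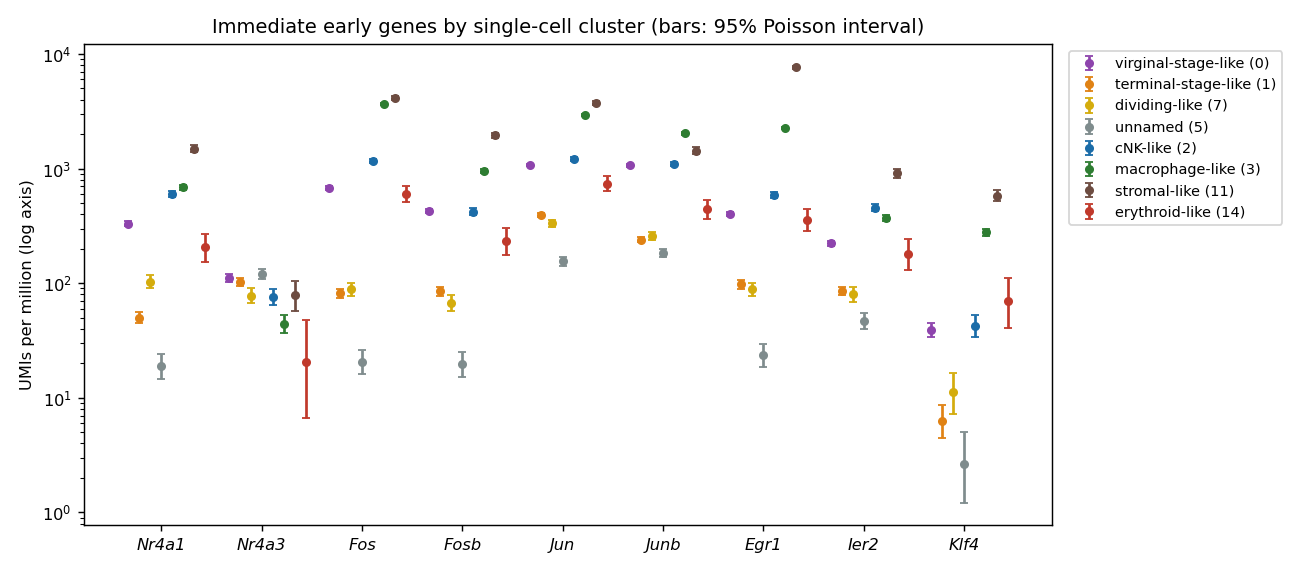
CPM, UMIs scaled to the cluster total, on a log axis for 9 members in 8 clusters, with exact 95% Poisson intervals as bars. Terminal-stage-like cells (cluster 1), dividing-like cells (cluster 7) and the unnamed cluster 5 lie lowest for every member but Nr4a3, which is at 44.1 to 120 CPM in 7 of the clusters plotted and lower in erythroid-like cells.

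The lowest levels were in an unnamed cluster of 629 cells led by Mt2, Ctsg and Scin, with a median of 5621 UMIs. Fos was at 20.5 CPM there and Jun at 155, while Nr4a3 was at 120. The highest levels of Egr1, Fos and Jun in the clusters plotted were outside the NK clusters. Stromal-like cells (211) had Egr1 at 7644 and Fos at 4130 CPM, and macrophage-like cells (845) had Fos at 3669 and Jun at 2958. The cNK-like cells (1033), conventional NK cells, had Fos at 1165 and Nr4a1 at 596.
With every cell thinned to 1000 UMIs, which left out 602 cells, a mean of 2.45 of 9 members was detected per virginal-stage-like cell and 0.93 per terminal-stage-like cell. It was 1.03 in dividing-like, 2.70 in cNK-like, 3.98 in macrophage-like, 5.05 in stromal-like and 0.56 in the unnamed lowest cluster. No member was found in 15.5% of thinned virginal-stage-like cells in 41.8% of terminal-stage-like cells and in 38.9% of dividing-like cells.
Such shares were set beside those of a cell type that should hold little of these genes. Fos had a UMI in 34.2% of thinned virginal-stage-like cells (52.5% unthinned), in 7.9% of terminal-stage-like cells (22% unthinned), in 2.7% of the unnamed lowest cluster (9.4% unthinned), and in 20.5% of erythroid-like cells (31.8% unthinned, 88 cells, median 2178.5 UMIs). The share in the unnamed cluster was lower still, so the erythroid-like share is a comparison and not a floor. The shares of Fos, Fosb, Junb, Egr1, Ier2, Klf4 and Nr4a1 in terminal-stage-like cells were at or below those of erythroid-like cells. For Klf4 the same held in virginal-stage-like cells (4.4% against 4.5%). The bulk trNK-T libraries did carry Junb (153 and 42.8 RPKM) and Ier2 (81.2 and 48.8 RPKM). These single-cell shares alone do not tell expression from UMIs of another source. The folds above compare UMIs counted, whatever their source. For Jun the intervals overlapped (27.8%, 25.3 to 30.4, against 22.7%, 14.5 to 32.9), and Nr4a3 was above (9.7% against 2.3%, 0.3 to 8.0; exact binomial 95% intervals). The inducible heat shock pair Hspa1a and Hspa1b was at 1920 CPM in virginal-stage-like cells, 908 in terminal-stage-like cells and 98.0 in the unnamed lowest cluster. That is the order of the mean members detected in these clusters, and it did not hold over all clusters. Stromal-like cells (mean 5.05 members) had 1702 CPM of the pair, and B cell-like cells (mean 1.65) had 366. The part of this pair was not tested.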

How the data were processed

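RNA was measured in 34 bulk libraries and 1 joined single-cell capture. The authors deposited a table of gene counts per bulk library, made per the submitters' processing notes with HISAT2 2.1.0 and featureCounts on mm10, while the methods name RSEM; a tool that assigns shared reads differently would move counts of near-identical genes. The deposited single-cell counts were UMIs per cell. RPKM was computed from counts, gene lengths and library totals (11862089 to 66468883 counts). Genes over 10 RPKM in both libraries of any group were tested with edgeR 4.0.16 (TMM, quasi-likelihood, R 4.3.3), in 1 fit per experiment, and called at a Benjamini-Hochberg adjusted p below 0.05 and a fold above 2. DESeq2 1.42.0, limma 3.58.1, no filter, edgeR's filterByExpr, a replicate block, only the compared groups, and leaving out each library were tried. The test was tried on simulated data: of genes changed 4-fold between trNK-T and trNK-V (4683 genes), 98.5% were called. Whether this share holds for genes that vary as the members do was not tested. Cells with 200 to 2500 genes and under 10% mitochondrial reads were clustered (scanpy 1.11.5). Scrublet marked 0 cells, so it had not worked and no doublets were removed; the rule for naming clusters was set after they were seen. The members and lists were chosen with earlier results of these data known. Named genes were to be the members, up to 6 called genes of each other list by their change at 6 h against 0 h, and the 10 genes most like the members over the time course; the genes named in their place from other comparisons and from the fresh libraries were chosen after their values were seen. Of the 10 genes most like the members in fresh libraries, 1 is not reported here. The 6 ATAC samples were not used here.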

Additional observations from a re-analysis of the deposited data

How the results depend on the processing

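Among members, the count called between gd6.5 and virgin cells was 0, and became 2 in DESeq2, 3 with no filter, 1 in limma with voom (7.91% of all genes called), 1 on adjusted p alone (9.27%), and 0 to 3 when each library was left out (0 to 17.4%). For gd8.5 against virgin it was 1, and became 3 in DESeq2, 4 with no filter, 0 with the replicate block (0 genes called) and 0 to 3 without each library (0 to 10.7%). For gd8.5 against gd6.5 it was 0, and 1 in DESeq2, with no filter and with only those groups (5.53%), and 0 to 1 without each library (0 to 5.58%). From trNK-V to trNK-D it was 0, and became 2 in DESeq2 and 6 with no filter, and from trNK-D to trNK-T 0, 2 and 5, with 0 to 1 without each library (0.0214 to 0.854%). From trNK-V to trNK-T it was 6, and 2 to 6 without each library (8.93 to 21.5%). There, edgeR's adjusted p for Nr4a1 was 0.126 with filterByExpr and 0.0670 with only those groups, and that for Egr1 was 0.0503 with filterByExpr (6.75% of all genes called), so these calls were lost. For IL-21 against control and for Stattic with IL-21 against IL-21 it was 0, and 1 in DESeq2 and 1 with no filter in each; for Stattic with IL-21 against control it was 0, and 1 in DESeq2, with no filter and with only those groups (5.36%). For 72 h against 0 h and against 24 h it was 0, and 1 with no filter. The replicate block (adjusted p = 0.0675 for Nr4a1, gd8.5 against virgin) rests on numbers that only name the libraries: correlations of same-numbered libraries ran from -0.51 to 0.60. Of 830 refits of single members, 743 kept direction and side of the threshold, 28 turned sign with no call in either fit, 44 gained and 15 lost a call, and 0 called values reversed. The causes were not tested. Of simulated 4-fold changes, 98.5% were called from trNK-V to trNK-T (4683 genes) and 91% from 0 to 6 h (3503 genes). A 2-fold change lies at the fold a call requires, and 47.8% and 25.4% were called. Whether these shares hold for the members was not tested. Standard errors of the tested members from trNK-V to trNK-T ran from 0.3 (Nr4a2) to 0.72 (Fos).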
